A study of Mus musculus with 16 samples.

Results

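Open chromatin was described at 8 genes of steroid signalling in mouse liver: the receptor genes Esr1, Nr3c1 and Nr3c2, and the steroid-metabolising enzyme genes Hsd11b1, Srd5a1, Akr1d1, Akr1c6 and Hsd17b2. DNase-seq sequences the short fragments that DNase I cuts from nuclei, and their piles mark open chromatin, called DNase hypersensitive sites (DHS). Every DHS that overlapped one of these genes, or the 20 kb on either side of it, was taken, and DHS of different lists that shared at least 1 bp were joined into a region. This gave 103 regions of the 51482 regions in the whole series. They were unevenly spread, with 18 at Esr1, 17 at Nr3c2, 16 at Hsd11b1, 12 at Srd5a1, 12 at Hsd17b2, 11 at Nr3c1, 9 at Akr1d1 and 8 at Akr1c6.

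Livers came from male and female mice of 2 inbred strains, B6 (C57BL/6J) and CAST (CAST/EiJ), the latter derived from wild mice of another subspecies. All mice were 8 weeks old by their labels, the labels give no transgene or treatment, and nuclei were digested with 32 U of DNase I. There were 16 libraries, 4 for each combination of sex and strain, but the 4 libraries of a group were pooled before DHS were called, so each group is represented by 1 list. No spread between animals could therefore be computed, no test was run, and every difference below is a difference between lists.

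Steroid hormones enter the hepatocyte and bind nuclear receptors. Esr1 encodes the estrogen receptor alpha, Nr3c1 the glucocorticoid receptor and Nr3c2 the mineralocorticoid receptor, each of which binds DNA once it holds its ligand. The enzymes set how much ligand there is in the cell. Hsd11b1 regenerates active glucocorticoid from its inert keto form, Srd5a1 is a steroid 5-alpha reductase that acts on testosterone and other hormones, Akr1d1 is the 5-beta reductase of bile acid synthesis and steroid clearance, Akr1c6 is an aldo-keto reductase with 17-beta hydroxysteroid dehydrogenase activity, and Hsd17b2 oxidises estradiol and testosterone to less active steroids. Male and female livers differ in many genes of steroid and drug metabolism, largely through the sex-dependent pattern of growth hormone release, which acts in hepatocytes through the transcription factor STAT5.

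Sequences are shown for regions of the highest −log10 q among those found in the lists of 1 sex or 1 strain only, for one missing from female B6 alone, and for the strongest promoter region, each as up to 150 bases on either side of the summit. They are the plus strand of the mm9 reference, which is B6 sequence, and capitals mark matches to the motifs described below. The first pair comes from the regions found in both male lists and neither female list with the highest −log10 q, one in an Esr1 intron (chr10:5470404-5470703) and one in an Akr1d1 intron (chr6:37491338-37491637).
Esr1, both male lists only: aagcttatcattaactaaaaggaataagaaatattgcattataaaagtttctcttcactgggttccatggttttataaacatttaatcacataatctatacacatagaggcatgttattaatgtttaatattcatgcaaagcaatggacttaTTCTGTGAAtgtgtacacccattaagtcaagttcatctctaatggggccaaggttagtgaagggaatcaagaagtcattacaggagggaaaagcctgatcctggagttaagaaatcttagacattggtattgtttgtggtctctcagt
Akr1d1, both male lists only: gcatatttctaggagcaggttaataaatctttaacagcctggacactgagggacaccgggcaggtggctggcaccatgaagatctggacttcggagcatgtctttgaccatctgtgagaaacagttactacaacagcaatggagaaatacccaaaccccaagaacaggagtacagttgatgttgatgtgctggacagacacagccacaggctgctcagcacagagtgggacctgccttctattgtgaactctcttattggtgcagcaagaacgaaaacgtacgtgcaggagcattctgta
The next pair comes from the region beyond the end of Hsd11b1 that was found in both B6 lists only (chr1:195037620-195037919) and from the region found in both CAST lists only with the highest −log10 q, in an Srd5a1 intron (chr13:69722670-69722969).
Hsd11b1, both B6 lists only: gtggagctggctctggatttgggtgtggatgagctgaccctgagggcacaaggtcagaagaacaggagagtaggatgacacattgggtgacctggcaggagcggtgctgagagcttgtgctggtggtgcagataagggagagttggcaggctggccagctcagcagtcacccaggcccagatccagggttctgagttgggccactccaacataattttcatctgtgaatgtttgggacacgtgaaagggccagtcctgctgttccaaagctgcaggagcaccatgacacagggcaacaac
Srd5a1, both CAST lists only: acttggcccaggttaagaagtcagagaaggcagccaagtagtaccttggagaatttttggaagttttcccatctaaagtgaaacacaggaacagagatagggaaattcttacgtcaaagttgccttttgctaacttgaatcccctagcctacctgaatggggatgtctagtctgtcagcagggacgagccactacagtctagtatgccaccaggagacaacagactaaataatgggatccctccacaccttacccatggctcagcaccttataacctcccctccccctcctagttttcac
The last pair comes from the Srd5a1 intronic region that was strong in male B6 and had no peak in female B6 (chr13:69721330-69721629), which was chosen after its values were seen, and from the promoter region that Srd5a1 shares with its neighbour Nsun2 (chr13:69750554-69750853).
Srd5a1, absent from female B6: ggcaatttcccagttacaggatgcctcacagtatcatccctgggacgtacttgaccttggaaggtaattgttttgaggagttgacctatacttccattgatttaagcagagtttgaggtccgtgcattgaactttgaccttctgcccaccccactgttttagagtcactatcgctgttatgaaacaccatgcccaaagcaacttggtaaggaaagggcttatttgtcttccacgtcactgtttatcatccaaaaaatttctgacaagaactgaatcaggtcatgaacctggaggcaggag
Srd5a1, shared promoter: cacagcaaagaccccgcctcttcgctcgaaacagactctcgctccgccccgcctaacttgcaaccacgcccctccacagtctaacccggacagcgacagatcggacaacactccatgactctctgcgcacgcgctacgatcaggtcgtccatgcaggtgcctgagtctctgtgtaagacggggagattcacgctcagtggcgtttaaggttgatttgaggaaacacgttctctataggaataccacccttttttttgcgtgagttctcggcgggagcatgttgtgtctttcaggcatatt

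Of these 6 windows, only that of Esr1 held a match marked in capitals, TTCTGTGAA, which fits the STAT5 and BCL6 motif TTCNNNGAA. The motifs marked, searched on both strands, were that one, TGTTTAC and TGTTTGC for FOXA, TTGCGCAA and TTGCACAA for C/EBP, CAAAGTCCA for HNF4, ATCGAT for ONECUT and CUX2, AGAACA and TGTTCT with NNN between them for the glucocorticoid and mineralocorticoid receptors, and AGGTCA and TGACCT with NNN between them for the estrogen receptor. Over all 103 regions, windows of the same length held the STAT5 or BCL6 motif in 12 (11.65%), compared with 10.2% of 51477 windows in the whole series. The FOXA motifs were in 15 (14.56%, compared with 14.21%), the C/EBP motifs in 4 (3.883%, compared with 2.378%), the HNF4 motif in 1 (0.9709%, compared with 1.675%) and the ONECUT and CUX2 motif in 2 (1.942%, compared with 1.845%). No window of the 8 genes held either receptor repeat, and 11 and 8 windows of the whole series did. The single elements AGAACA and AGGTCA, which also make up these repeats and are not in capitals above, were searched on their own as well. AGAACA was in 32 windows (31.07%, compared with 22.38% of all), with 9 of 16 at Hsd11b1 and between 22.22% and 33.33% at the other genes. AGGTCA was in 27 (26.21%, compared with 25.99%). The median GC content of the windows was 45% at the 8 genes and 49% in all, and its part in these shares was not tested. Among the windows shown, those of Hsd11b1 and Akr1d1 each held 1 AGAACA, and those of Hsd11b1 and of the Srd5a1 region absent from female B6 held 2 and 4 AGGTCA. Of the 12 regions found in both male lists only, 3 held the STAT5 or BCL6 motif (at Esr1 in 2 and at Nr3c2 in 1) and 2 the FOXA motifs, compared with 11.12% and 15.84% of all 4830 such regions. A match is a string of letters and not a measured binding site.

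The lists differed in size and depth. They held 24888 to 39562 peaks, with both male lists larger than both female lists. The background that MACS2 used genome-wide was 15.35 and 13.93 reads at a position in B6 males and females, and 14.25 and 7.94 in CAST males and females. A peak at that background needed a summit pileup of at least 30, 28, 28 and 19 reads and a fold enrichment of at least 1.896, 1.943, 1.901 and 2.237, in the same order. Fold enrichment is the summit pileup over the local background, and the −log10 q of a peak rises with both fold enrichment and depth. A region without a peak in a list was thus not detected there, which is not a measurement of closed chromatin. An Xist region was a DHS in both female lists and in neither male list, and Y-linked peaks numbered 53 and 15 in the male and female B6 lists and 0 in both CAST lists. Promoter DHS were found for 5 of 6 hepatocyte markers in every list, for at most 1 of 5 Kupffer cell markers, for 0 of 4 stellate cell markers and for 1 of 4 bile duct markers. Of the sinusoidal endothelial markers, all 4 had one in B6 males, 2 in B6 females and 1 in either CAST list, and their part in the differences between lists was not tested. In nuclei of whole liver, fewer cells of a type and less open chromatin per cell cannot be told apart.

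The number of DHS around the 8 genes was higher in males than in females in both strains, as it was in the whole lists. The windows held 78 and 47 peaks in B6 males and females, and 86 and 57 in CAST males and females. The whole lists held 38751 and 26271 peaks in B6 males and females, and 39562 and 24888 in CAST males and females. Esr1 had 11 and 6 peaks in B6 males and females, and 19 and 8 in CAST males and females, the widest range of the 8 genes. Nr3c1 had 11, 5, 8 and 6, and Nr3c2 had 12, 6, 14 and 10, in the same order. Srd5a1 and Hsd11b1 varied less, with 10, 7, 10 and 9 peaks and with 10, 9, 13 and 9 peaks. Akr1d1 had 8, 4, 6 and 3 peaks, Akr1c6 had 6, 4, 7 and 3, and Hsd17b2 had 10, 6, 9 and 9. The male B6 list had more peaks than the female B6 list at every one of the 8 genes. The difference in list size has the same direction, and with all lists reduced to the same number of peaks by −log10 q there were 44 and 45 peaks in B6 males and females and 48 and 57 in CAST males and females. By fold enrichment these were 42 and 42, and 46 and 57, so that males no longer had more in either strain.

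**Figure D1:**
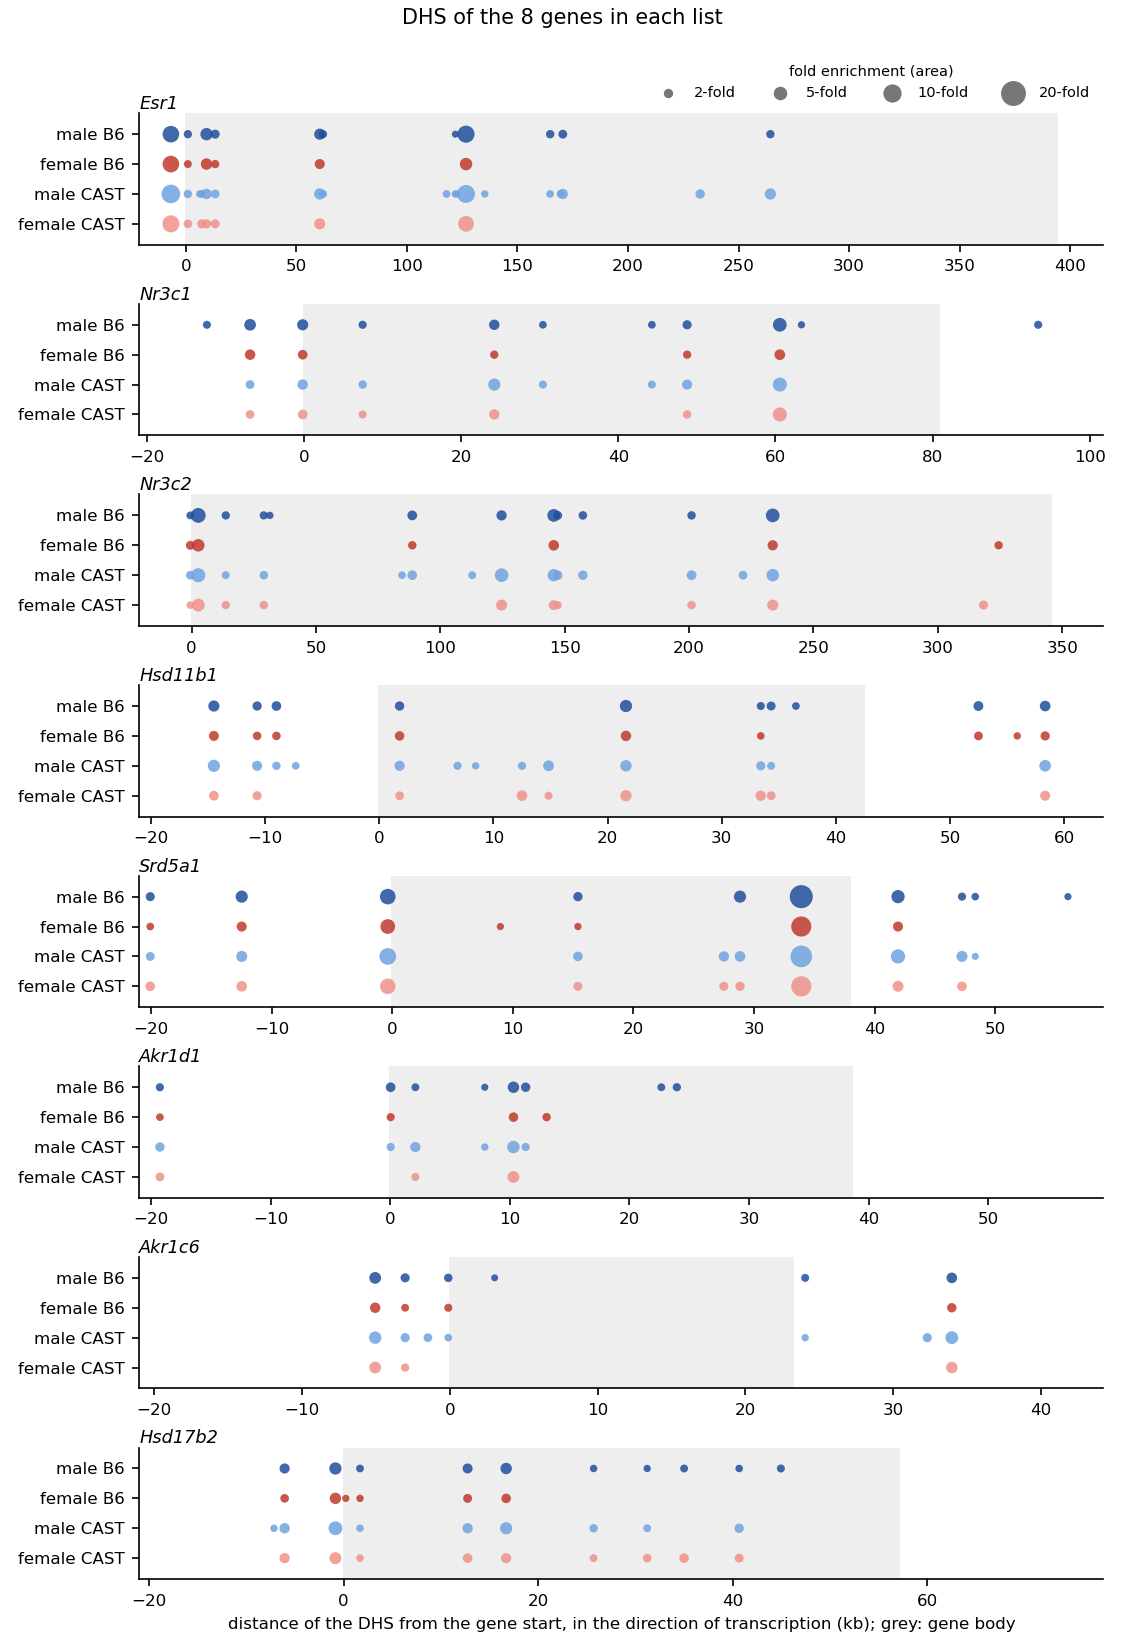
DHS regions of the 8 genes by distance from the gene start in the direction of transcription (kb, x axis) in the male B6, female B6, male CAST and female CAST lists (rows). Dot area is the fold enrichment, the grey band is the gene body, and each region is drawn at its summit in the list where it was strongest. The largest dots are the Srd5a1 intronic region 33.9 kb into the gene, at 15.5 to 20.4-fold in the 4 lists.

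Hsd11b1 had 19.41 regions per 100 kb of window and Srd5a1 had 15.39, compared with 4.147 for Esr1 and 4.409 for Nr3c2, the longest of the 8 genes. The other genes lay between 9.109 and 12.65. By position, 69 of the 103 regions were intronic, 20 upstream, 11 downstream, 2 in exons with untranslated sequence and 1 in a coding exon. Some belong to the windows of other genes as well, such as Nsun2 at Srd5a1, G0s2 and 1600010F14Rik at Hsd11b1, and Syne1 at Esr1, and assignment by distance does not say which gene a region serves.

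Most regions were found in all 4 lists or in a single list, as in the rest of the genome. The 4 lists shared 37 of the 103 regions (35.92%, Wilson 95% interval 27.32 to 45.54), compared with 35.6% of all regions. A single list held 31 (30.1%), compared with 35.2%. Of these, 5 were in female B6 and 1 in female CAST, and a peak of the male list of the same strain was present in 37.87 to 92.21% of regions like them. Both male lists and neither female list held 12 (11.65%, 6.792 to 19.27), compared with 9.38% of all regions. Both female lists and neither male list held 0, compared with 0.0622%. Both B6 lists only held 1, compared with 3.32%, and both CAST lists only held 4, compared with 3.62%. The Wilson intervals of these shares include the background in each case. With lists of equal size the male-only count was 0 of 69 ranked by −log10 q and 1 of 69 ranked by fold enrichment, compared with 2.289% and 2.668% of all regions. At a stricter threshold it was 12 of 49, compared with 20.2% of all.

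One class stood further from its background. Regions found in every list but female B6 numbered 13 (12.62%, 7.526 to 20.4), compared with 4.73% of all regions. This class was picked out after its count was seen, so the interval is not a test of it. The interval also takes neighbouring regions of a gene as separate counts. Nr3c2 had 5 of these, Hsd17b2 had 3, Srd5a1 had 2, and Nr3c1, Hsd11b1 and Akr1d1 had 1 each. For 9 of the 13, fewer than 50% of regions of like −log10 q in male B6 had a female B6 peak, and for 7 of the 13 fewer than 50% of those like them in female CAST had one. Each of these shares takes 1 list at a time. Of all regions with a peak in every other list, at any strength, 18309 had a female B6 peak and 2436 did not. Regions found in every list but female CAST numbered 4, compared with 6.85%. The female B6 list held 26271 peaks at a median of 3.281-fold over 13.93 background reads, and the female CAST list 24888 at 4.055-fold over 7.94. The part of these differences in the count was not tested. With lists of equal size by −log10 q the count was 4 of 69 regions, compared with 3.076% of all, and at a stricter threshold it was 1 of 49, compared with 5.916%.

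**Figure D2:**
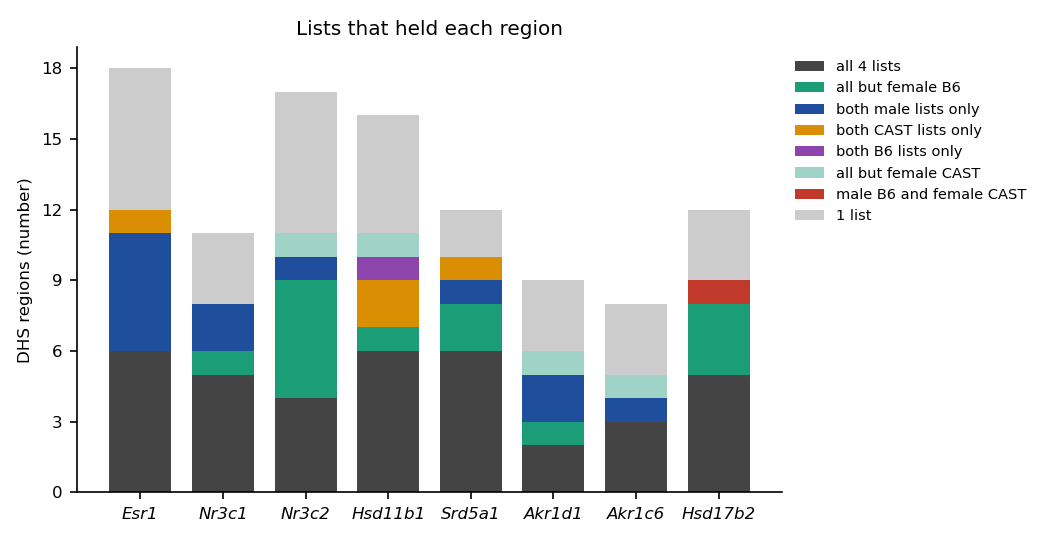
Number of DHS regions at each of the 8 genes (y axis), with colours for the lists that held them. Of the 13 regions missing from female B6 alone, 5 are at Nr3c2, and 5 of the 12 regions in both male lists only are at Esr1.

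At Esr1, the estrogen receptor gene, 5 intronic regions were found in both male lists and in neither female list, the most of any of the 8 genes. The strongest of them in male CAST lay 264.4 kb into the gene (chr10:5470338-5470718). It had a fold enrichment of 2.69 in male B6 and 4.92 in male CAST and a −log10 q of 6.42 and 26.3. Regions of like −log10 q in the male list (5.136 to 8.025 in B6 and 21.03 to 32.86 in CAST) had a female peak in 23.48% of cases in B6 and 76.07% in CAST, so the missing CAST peak was the less usual of the pair. A second region (chr10:5564207-5564911), the strongest of the 5 in male B6, had 3.01 and 3.97-fold enrichment, and 41.16% and 68.98% of like regions had a female peak. The other 3 (starting at 5569949, 5612829 and 5672721) had 1.92 to 2.73-fold enrichment and were weaker than both in male CAST. In male B6, those starting at 5569949 and 5672721 had a −log10 q of 8.05 and 6.61, above the 6.42 of the first region. For the 3, at most 31.1% of like regions had a female peak in the same strain. For those 3, absence from the female lists was the usual outcome at that strength.

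The strongest Esr1 regions were present in both sexes. A region 6.70 kb upstream of the gene start (chr10:5741098-5742065) had 10.6 and 10.6-fold enrichment in B6 males and females, and 13.4 and 11.2 in CAST males and females. An intronic region 126.8 kb into the gene (chr10:5607775-5608485) had 11.2, 5.97, 12.4 and 9.54-fold enrichment, lowest in female B6. Among the 18309 regions in all 4 lists, fold enrichment was mostly higher in the male lists. Ratios were therefore divided by the median ratio of these regions, which was 1.341 for male over female in B6 and 1.202 in CAST. The centred male over female ratio of that intronic region was 1.40 in B6 (95% counting interval 1.14 to 1.75) and 1.08 in CAST (0.890 to 1.33). At the start of Esr1 itself (chr10:5733672-5735192) the DHS was weak, at 2.62, 2.42, 2.73 and 2.90-fold in the 4 lists. An intronic region 9.42 kb into the gene (chr10:5724846-5725841) was stronger in B6, with 5.88 and 5.03-fold in B6 males and females, and 4.13 and 3.27 in CAST males and females. Its centred B6 over CAST ratio was 1.51 in males (1.21 to 1.89) and 1.83 in females (1.36 to 2.52). These lay above those of 95.57% and 99.37% of all regions with a peak in both strains of that sex. Close by, chr10:5727482-5727932 was found in both CAST lists only, at 2.28 and 3.24-fold.

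Nr3c1, the glucocorticoid receptor gene, had a broad promoter DHS of 2933 bp (chr18:39648671-39651603), 2841 to 2925 bp wide in the 4 lists. Its fold enrichment was 4.79 and 3.62 in B6 males and females, and 4.16 and 3.63 in CAST males and females, and its centred sex ratios were 0.985 in B6 and 0.953 in CAST. The strongest region of the gene was intronic (chr18:39590002-39591010), with 7.25, 4.42, 7.57 and 7.66-fold. It was lowest in female B6, and its centred B6 over CAST ratio in females was 0.684 (0.509 to 0.914), compared with 1.01 in males. A region 6.89 kb upstream (chr18:39657444-39658128) was the second of the pair past 1.5-fold in B6 over CAST in both sexes, with 5.29 and 4.23-fold in B6 males and females, and 2.96 and 2.94 in CAST males and females. The centred ratio was 1.89 in males (1.35 to 2.73) and 1.70 in females (1.10 to 2.85). Both lay above 98.8% of all regions with a peak in both strains of that sex. The 2 regions found in both male lists only (starting at 39606287 and 39620410) had 2.27 to 2.55-fold enrichment, and 15.2 to 21.15% of like regions had a female peak.

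At Nr3c2, the mineralocorticoid receptor gene, the main promoter signal was a region 2.72 kb inside the gene, at an internal start site (chr8:79425648-79426472). Its fold enrichment was 8.40 and 6.02 in B6 males and females, and 7.56 and 6.36 in CAST males and females, with centred ratios of 0.990 to 1.18 in the 4 comparisons. The region at the outermost start (chr8:79422769-79423416) was weaker, with 2.42, 3.07, 2.94 and 2.25-fold, and was the one region of the 37 past 1.5-fold in female over male in B6. Its centred male over female ratio was 0.586 in B6 (0.437 to 0.794) and 1.08 in CAST (0.769 to 1.61). The 5 intronic regions absent only from female B6 had 2.38 to 7.17-fold enrichment elsewhere. The strongest (chr8:79547527-79548392) had 4.04-fold in B6 males, and 7.17 and 4.70 in CAST males and females, and a female B6 peak was present in 70.16% of regions as strong in male B6 and 85.99% of those as strong in female CAST. For the other 4 it was present in 21.42 to 71.45% of regions like them in male B6 and 37.9 to 39.49% of those like them in female CAST. Each share takes 1 list at a time, and none was computed for regions of like strength with a peak in every other list. The region in both male lists only (chr8:79580168-79580878) had 2.81 and 3.41-fold, and 27.0 and 35.69% of like regions had a female peak. A region found in female CAST only (chr8:79741573-79741910) had 3.24-fold, and 91.05% of like female CAST regions had a male CAST peak and 56.5% a female B6 peak. A region found in female B6 only (chr8:79747666-79747926) had 2.68-fold, and 87.7% of like female B6 regions had a male B6 peak and 47.43% a female CAST peak.

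Hsd11b1 had its strongest promoter DHS not at the outermost start but 21.6 kb inside the gene, over an internal start site (chr1:195067543-195068896). The fold enrichment there was 5.77 and 4.18 in B6 males and females, and 5.0 and 4.92 in CAST males and females. The region 1.43 kb from another start (chr1:195088169-195088822) had 3.36, 3.48, 4.0 and 2.91-fold. An upstream region (chr1:195104399-195105079) was stronger than either in male CAST, with 4.82, 3.83, 5.73 and 3.69-fold. Both promoter regions were found in all 4 lists, and their centred ratios lay between 0.720 and 1.42. The gene held 3 of the 5 regions found in both lists of 1 strain only and none found in both lists of 1 sex only. The region in both B6 lists only (chr1:195037467-195037968) had 3.76-fold in males and 2.99 in females, and 86.33% of male B6 regions and 64.83% of female B6 regions as strong had a CAST peak in the same sex. It lies beyond the end of Hsd11b1 and 3.52 kb from a start of 1600010F14Rik. The regions in both CAST lists only were intronic, one (chr1:195075109-195075589) with 4.53-fold in males and 2.52 in females, the other (chr1:195077555-195077895) with 2.56-fold in males and 4.31 in females. For these, 84.57% and 49.35% of like male CAST regions had a male B6 peak, and 30.26% and 85.1% of like female CAST regions had a female B6 peak. An intronic region in all 4 lists (chr1:195056654-195057278) had 2.51, 2.23, 3.21 and 4.10-fold, highest in female CAST, with a centred male over female ratio of 0.651 in CAST (0.446 to 0.975) and 0.837 in B6 (0.554 to 1.30).

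Srd5a1 held the strongest region of the 8 genes, in an intron 33.9 kb from its start (chr13:69715881-69716817). Its fold enrichment was 20.4 and 15.5 in B6 males and females, and 17.95 and 15.6 in CAST males and females, higher than 99.79 to 99.96% of the peaks of each list. After centring, the male over female ratio was 0.980 in B6 (0.864 to 1.12) and 0.956 in CAST (0.818 to 1.13), and the summits of the 4 lists lay within 46 bp. The promoter region shown above (chr13:69749981-69751111) had 9.37, 8.31, 10.8 and 9.18-fold, with the 4 summits within 28 bp. It covers the starts of Srd5a1 and of Nsun2, an RNA methyltransferase gene on the other strand, and cannot be assigned to one of them. The intronic region chr13:69721272-69722187 had 5.68-fold enrichment in B6 males, no peak in B6 females, and 4.42 and 3.36-fold in CAST males and females. Its −log10 q in male B6 was 67.8, and 97.53% of the 3158 regions of like −log10 q (54.22 to 84.72) had a female B6 peak, as did 73.47% of those like it in female CAST. Close by, chr13:69722573-69723039 was found in both CAST lists only, with 4.08 and 3.14-fold, and 84.96% of like male CAST regions and 59.41% of like female CAST regions had a B6 peak in the same sex. The region in both male lists only (chr13:69701644-69702076) was weak, at 2.22 and 1.94-fold. A region past the gene end (chr13:69707935-69708616) had the highest centred male over female ratio in CAST of the 37, 1.39 (1.01 to 2.02), with 1.30 (0.962 to 1.81) in B6.

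Akr1d1 had 5 of its 9 regions within 2.5 kb of a start site. The strongest (chr6:37489404-37490745), 10.3 kb into the gene at an internal start, had 5.06 and 3.49-fold enrichment in B6 males and females, and 5.99 and 5.39 in CAST males and females, and was 1280, 496, 1342 and 1024 bp wide. The DHS at the outermost start (chr6:37480061-37480591) had 3.57, 2.55 and 2.62-fold in the first 3 lists and no peak in female CAST, where 18.14% of regions as strong in male CAST and 39.02% of those as strong in female B6 had one. The region chr6:37481858-37482544 had 2.38-fold in B6 males, no peak in B6 females, and 3.99 and 2.52-fold in CAST males and females. Regions in both male lists only lay on either side of the internal start. The stronger (chr6:37491377-37491699) had 3.42-fold in male B6 and 2.58 in male CAST, and 84.96% of the 4083 regions of like −log10 q in male B6 had a female B6 peak, compared with 33.52% in CAST. The weaker (chr6:37487880-37488239) had 1.98 and 2.1-fold. In the other direction, chr6:37493144-37493425 was found in female B6 only, at 2.70-fold, and 92.21% of like female B6 regions had a male B6 peak and 55.04% a female CAST peak.

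Akr1c6 lies among aldo-keto reductase genes of high similarity, and since only uniquely aligned reads were kept, DHS in stretches that the copies share could be missing from the lists, which was not tested. Its promoter DHS (chr13:4433317-4433820) had 2.78 and 2.54-fold enrichment in B6 males and females, 2.26 in CAST males and no peak in CAST females. It was the one gene of the 8 without a DHS within 2.5 kb of a start in every list, and a female CAST peak was present in 23.81% of regions as strong in male CAST and 61.56% of those as strong in female B6. Of the other regions near its starts, chr13:4431932-4432331 was found in male CAST only, at 2.94-fold, and chr13:4436235-4436628 in male B6 only, at 1.84-fold. The strongest regions lay on either side of the gene. The upstream one (chr13:4428182-4428729) had 5.32, 4.19, 5.95 and 5.37-fold and led in every list but male CAST. The other was 34.0 kb from the gene start, beyond its end (chr13:4466738-4467932), with 4.34, 3.42, 6.31 and 5.14-fold. Its centred B6 over CAST ratio was 0.728 in males (0.529 to 0.987) and 0.788 in females (0.517 to 1.21). The female interval includes 1. The region in both male lists only (chr13:4457529-4458002) had 2.45 and 2.1-fold.

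Hsd17b2 had a promoter DHS 0.842 kb upstream of its start (chr8:120224566-120225605), with 5.78 and 4.99-fold enrichment in B6 males and females, and 7.37 and 5.51 in CAST males and females. A weaker region 1.68 kb into the gene (chr8:120226808-120227920) had 2.1 to 2.36-fold in the 4 lists. A region over a coding exon near the start (chr8:120225886-120226142) was found in female B6 only, at 2.03-fold. The gene had no region found in both lists of 1 sex or of 1 strain only. For its 3 regions in every list but female B6, a female B6 peak was present in 8.863 to 12.65% of like male B6 regions and 28.07 to 59.08% of like female CAST regions. One intronic region (chr8:120260730-120261049) was found in male B6 at 2.42-fold and in female CAST at 3.51-fold, and in neither of the other lists. Among female CAST regions of like −log10 q, 98.37% had a male CAST peak and 75.79% a female B6 peak. Among like male B6 regions, 17.49% had a female B6 peak and 46.97% a male CAST peak.

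Across the 37 regions in all 4 lists, few centred ratios passed 1.5-fold, in either sex or strain. None was past 1.5-fold in males in both strains (0.35% of all 18309 regions) or in females in both strains (0.115%). CAST was past 1.5-fold in both sexes in 0 (2.15% of all). The upper Wilson limit for 0 of 37 is 9.406%, above the background in each of these 3 classes. B6 was past 1.5-fold in both sexes in 2, the Esr1 and Nr3c1 regions above, or 5.405% (Wilson 1.495 to 17.7), compared with 0.868% of all. That count rests on 2 regions and was 0 or 1 under 6 of the alternatives tried. The median centred male over female ratio of the 37 was 0.948 in B6 and 0.974 in CAST, and 14 and 16 of the 37 lay above the median of all regions. The median fold enrichment of the 37 was below that of all regions found in the 4 lists, with 4.82 compared with 5.35 and 3.51 compared with 3.88 in B6 males and females, and 4.93 compared with 5.80 and 4.0 compared with 4.66 in CAST males and females. The summits of the 4 lists spanned a median of 91 bp in the 37 and 91 bp in all regions.

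**Figure D3:**
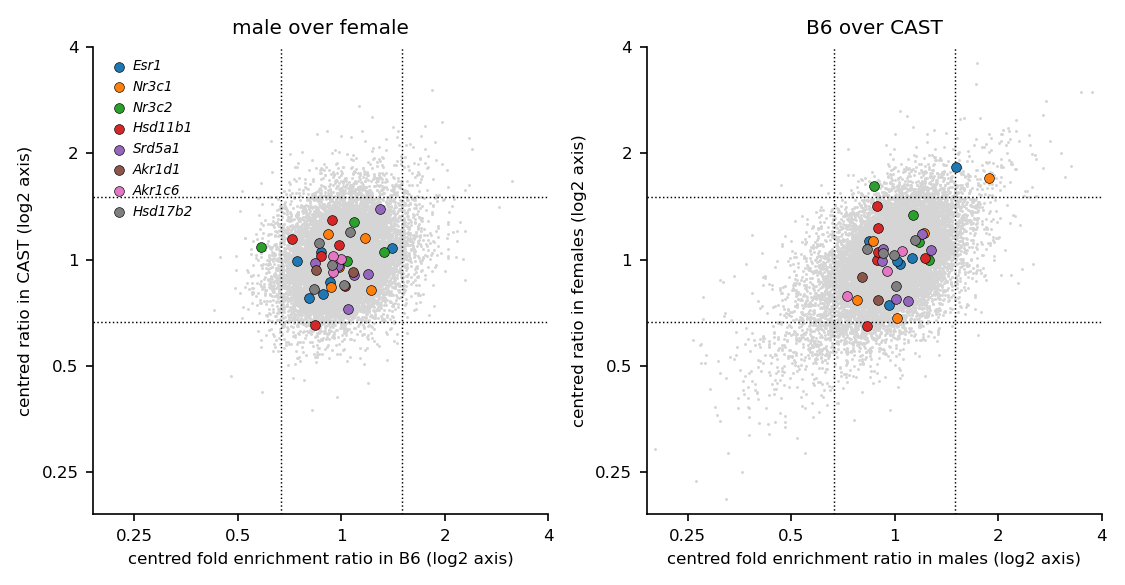
Centred fold enrichment ratios of the 37 regions in all 4 lists (coloured by gene), with all other regions found in all 4 lists in grey, on log2 axes. The left panel sets male over female in B6 against CAST, the right panel sets B6 over CAST in males against females, and dotted lines mark 1.5-fold either way. In the left panel no coloured point is in a corner beyond the lines, and in the right panel the Esr1 and Nr3c1 regions are at 1.51 and 1.83 and at 1.89 and 1.70.

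The 12 regions in both male lists only had a −log10 q of 1.75 to 27.4, and the 5 in both lists of 1 strain only had one of 2.73 to 23.5. The median −log10 q of all 8 genes' regions in male B6 was 15.7.

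**Figure D4:**
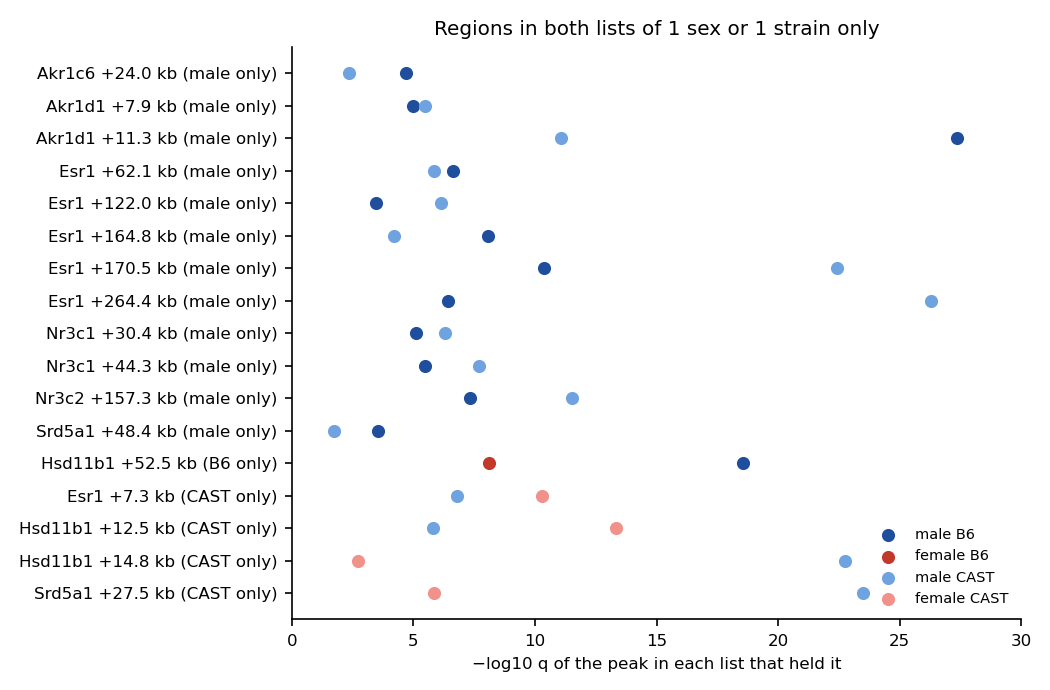
−log10 q (x axis) of each peak in the 17 regions found in both lists of 1 sex or 1 strain only, named by gene and distance from the gene start, with colours for the lists. The Akr1d1 region 11.3 kb and the Esr1 region 264.4 kb into the gene reach 27.4 and 26.3 in one male list.

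All 8 genes had a DHS within 2.5 kb of a start site in 3 of the lists, and in female CAST 7 did. Of 22238 protein-coding genes, 44.46% had one in every list, compared with 7 of the 8. The strongest such region had the highest fold enrichment at Srd5a1 and Nr3c2 and the lowest at Esr1 and Akr1c6 in both B6 lists and in male CAST. Of 9887 other genes with a promoter DHS in all 4 lists, the gene whose 4 log2 values were nearest was Nsun2 for Srd5a1, since they share the region, Mthfd1l for Esr1, Pkmyt1 for Nr3c1, Cgn for Nr3c2, Ctnnal1 for Hsd11b1, Lmln for Akr1d1 and Nr2c2ap for Hsd17b2. The summed distance of the other 6 over the 4 lists was 0.0913 to 0.141 on the log2 scale.

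**Figure D5:**
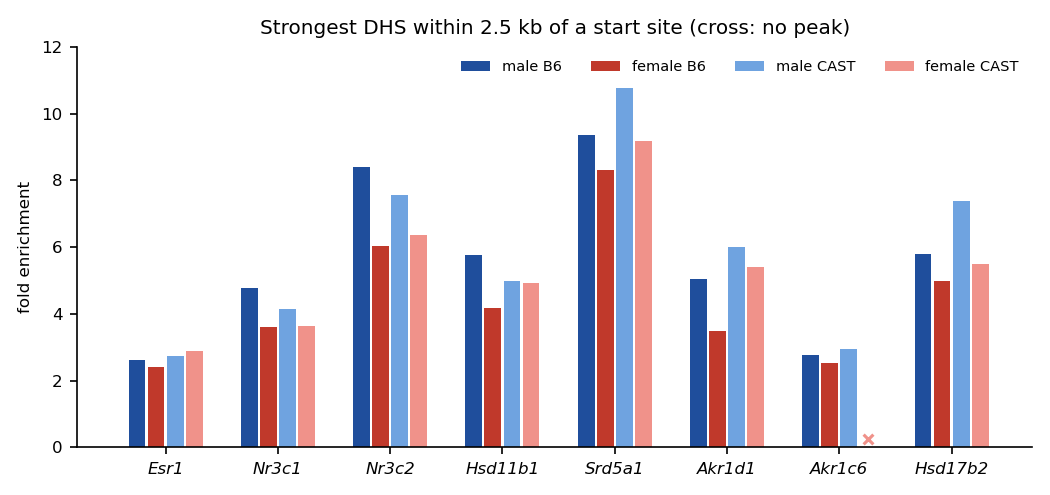
Fold enrichment (y axis, from 0) of the strongest DHS within 2.5 kb of a start site of each of the 8 genes, with 1 bar for each list and a cross where there was no peak. Bars run from 2.42 at Esr1 in female B6 to 10.8 at Srd5a1 in male CAST, and the cross is Akr1c6 in female CAST.

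Other genes of the steroid pathway were described by the same promoter count. Of 42 annotated genes, 28 and 24 had a promoter DHS in B6 males and females (66.67 and 57.14%), and 31 and 27 in CAST males and females (73.81 and 64.29%). The shares of all protein-coding genes were 54.23, 49.37, 53.53 and 46.56% in the same order. In all 4 lists 24 had one, or 57.14%, compared with 44.46%. The receptor genes Esr2 and Pgr had no promoter DHS in any list. Chaperones and partners of the receptors had one in nearly every case, 8 of 9 in all 4 lists, the exception being Ncoa1, which lacked it in female B6. Genes of steroid hormone synthesis, which takes place mainly in the adrenal gland and gonads, had one in all 4 lists in 2 of 7 (Cyp17a1 and Por) and in no list in 4. Promoter DHS in both male lists only were found for 2 of the 42, compared with 2.154% of protein-coding genes, and in both CAST lists only for 1, compared with 0.3328%. Among reductases, Akr1c12 had promoter DHS in both male lists only (2.32 and 2.62-fold) and Akr1c18 in both CAST lists only (3.24 and 2.79-fold). Akr1b7 was stronger in B6, with 5.70, 3.89, 3.39 and 3.02-fold and centred B6 over CAST ratios of 1.78 in males and 1.53 in females. Hsd17b14, a 17-beta hydroxysteroid dehydrogenase family member, had a promoter DHS in both male lists only, at 2.75 and 2.88-fold (−log10 q of 6.877 and 7.368). For these pathway genes, it was not computed how often regions of like −log10 q had a peak in the other lists.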

How the data were processed

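DHS lists were deposited for 4 groups of 4 libraries (16 in all), grouped by library title. Per the labels, the authors aligned reads with Bowtie2 and called DHS with MACS2. By the study's methods, only uniquely aligned reads were used, CAST reads were mapped to a strain-specific genome and converted to mm9, and the libraries of a group were merged first. The deposited values per peak are a fold enrichment (the ratio of summit pileup to background), a −log10 p-value, a −log10 q-value, a score that was not needed, and, in another column, how far the summit lies from the start of the peak. Merging hides the spread between animals, and MACS2 calls more peaks in deeper or more enriched libraries.

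Coordinates are mm9 and count from 1, and genes and start sites are those of the GENCODE annotation of mm9. Peaks were joined at 1 bp or more. Where a list had several peaks in a region, that with the highest fold enrichment stood for it. Summit pileup and background were recovered from fold enrichment (pseudocount 1) and p-value, which gave pileups within 0.02 of a whole number for at least 99.86% of peaks of each list. Counting intervals (95%, Clopper-Pearson) and Wilson intervals cover counting error only. Joining and recovery were tested on simulated data. Regions named are those within 2.5 kb of a start site, the strongest of each gene, and those limited to a sex or strain or past 1.5-fold. Outside this rule, and chosen after their values were seen, are the regions starting at 5607775 (Esr1), 79547527, 79741573 and 79747666 (Nr3c2), 195056654 and 195104399 (Hsd11b1), 69707935 and 69721272 (Srd5a1), 37493144 (Akr1d1), 4428182 (Akr1c6) and 120260730 (Hsd17b2). Pathway genes are counted, and named by class. Of 45 listed, 42 were annotated. The 8 genes and all lists were chosen with earlier results of these data known. Alternatives were another overlap, threshold, list size, joining distance, window, measure of height and centring. No library could be left out, since only merged lists were used. Scripts used Python 3.11.15, numpy 2.4.6, scipy 1.17.1 and pandas 2.3.3.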

Additional observations from a re-analysis of the deposited data

Results flagged for a closer look

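At 2 flagged regions the point values of the sexes or strains lay in opposite directions. Neither difference was tested, since each group is 1 list. They are not the only such regions. For example, the centred male over female ratio in B6 and CAST was 1.22 and 0.822 at chr18:39590002-39591010 (Nr3c1). It was 0.720 and 1.14 at chr1:195088169-195088822 (Hsd11b1). The region at the outermost start of Nr3c2 had a centred male over female ratio of 0.586 in B6 (95% counting interval 0.437 to 0.794) and 1.08 in CAST (0.769 to 1.61), and a centred B6 over CAST ratio of 0.869 in males (0.664 to 1.13) and 1.62 in females (1.11 to 2.44). The CAST and the male interval each include 1, so the direction of those values is within counting error. The intronic Hsd17b2 region at chr8:120260730-120261049 was found in male B6 (2.42-fold) and female CAST (3.51-fold) and in no other list, so that the sex with a peak was opposite in the strains. Missing peaks are not a measurement of closed chromatin. Of regions as strong in male B6, 17.49% had a female B6 peak and 46.97% a male CAST peak, while of those as strong in female CAST, 98.37% had a male CAST peak and 75.79% a female B6 peak.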

How the results depend on the processing

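The numbers of regions moved with the list size and threshold. With 50% overlap of both peaks, 23.97% of regions were in all 4 lists (28.22% of all regions in the series) and 2 were in both female lists only. At a stricter threshold (−log10 q of at least the pooled median, 15.7), 49 regions were left, 0 were in both CAST lists only, 1 was in all lists but female B6 and 0 were past 1.5-fold in B6, and the lists held 39, 20, 42 and 15 peaks (male B6, female B6, male CAST, female CAST). With lists of equal size by −log10 q, 0 regions were in both male lists only, 1 in both female lists only, 3 in both B6 lists only and 4 in all but female B6, 1 was past 1.5-fold in B6, and the male lists held 44 (B6) and 48 (CAST) peaks. With lists of equal size by fold enrichment these were 1, 2, 3, 4 and 1, with 42 and 46 peaks. In all 3 of these settings fewer peaks were used by construction. A window of 2.5 kb gave 0 regions in both B6 lists only, 1 past 1.5-fold in B6 and 31 female B6 peaks. A window of 50 kb gave 3 regions in both B6 lists only, 1 past 1.5-fold in females, and 118, 76 and 86 peaks in male B6, female B6 and female CAST. With pileup less background in place of fold enrichment, 1 region was past 1.5-fold in females and 1 in B6, for which the cause was not tested. Without centring, 1 was past 1.5-fold in males and 0 in B6. There the ratios are no longer divided by their medians (1.341 and 1.202 for male over female, 0.9444 and 0.8427 for B6 over CAST), and 5.221% of all regions in the 4 lists were past 1.5-fold in males, compared with 0.3496%. Of the counts for single genes, 80 moved by over 1.5 times and 80 did not, and those that moved went down except 17 under the wider window. Joining peaks within 500 bp and choosing the peak of highest −log10 q moved no count by over 1.5 times. Counts for the class without female B6 were added after seeing the data. No paired analysis was possible because the replicates were merged into 1 list a group. The low depth of female CAST limits what its missing peaks show.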
